A study of Homo sapiens with 6 samples.

Results

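Long reads of K562 cells and of their extracellular vesicles (EVs) were assembled by the authors into isoform models with FLAIR, a tool that corrects and collapses spliced long reads, and each model was given a productivity class from the start codons of the gene annotation. The isoforms described here are the models of protein-coding genes that received the class without a start codon. They number 714, in 593 genes, out of 8829 isoforms of 4942 coding genes in the isoform table and out of 13208 isoforms of any gene. The other classes are productive isoforms, isoforms with a premature stop codon and isoforms without a stop codon. The class is set by the position of a model relative to annotated start codons, so that the missing start codon itself is not a result.

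RNA of EVs in 3 libraries (EV) was compared with RNA of whole cells in 3 libraries (WC). K562 is an established line of human chronic myeloid leukemia, and all libraries came from untreated, wild-type cells of this line. EVs were taken from medium that the cells had conditioned, with serum depleted of vesicles, by centrifugation and size exclusion chromatography. The EV and the WC library of a replicate number came from the same culture and shared a flow cell, and all of them were total RNA copied into cDNA from poly(A) tails and amplified by PCR. Because a single line was used, the replicates cover the spread between cultures of K562 only.

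Gene counts summed to 560157 to 881338 in EV libraries and to 2480560 to 3178211 in WC libraries, and the EV values are therefore the less precise ones. Of the erythroid and leukemia genes checked, GATA1, the master regulator of erythroid genes, had 178 counts over the EV libraries and 1014 over the WC libraries, and the receptor gene TFRC had 108 and 1504. ALB of liver cells, MPO of granulocytes and MS4A1 of B cells had 0 counts in all 6 libraries, and CD3E of T cells and CD14 of monocytes had 0 in EV and 1 in WC. PTPRC of white blood cells and EPCAM of epithelial cells were counted in both, at 26 and 59 counts in EV and 619 and 761 in WC, and their part in the results was not tested. Coding genes took 47.5% to 48.5% of the counts in EV libraries and 55.2% to 56.6% in WC libraries.

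A eukaryotic mRNA is read by a ribosomal subunit that binds near the capped 5′ end and scans to a start codon, usually the nearest AUG in a favorable context. The bases before that codon form the 5′ UTR, whose length differs widely between genes. A transcript whose 5′ end lies inside the coding sequence, or whose splicing leaves out the exon with the start codon, cannot encode the annotated protein from its annotated start. In long-read data such a model can come from a true alternative start site or splice, or from a cDNA that does not reach the 5′ end of its RNA, and the model alone does not tell these apart. Genes with very short 5′ UTRs, many of which make parts of the ribosome or of mitochondria, place the start codon a few bases from the cap.

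How closely some of these models miss the start codon is seen from the bases around it. In the windows printed here, read from GRCh38 along the annotated main (Ensembl canonical) transcript from 5′ to 3′, capitals mark the bases that the isoform of that gene with the highest level contains, and lower case marks bases that it lacks. Each window has 30 bases, 10 of them before the start codon except for SLIRP, which has 9, as its annotated transcript begins there. These genes hold isoforms with high levels, but the windows are a selection. Level alone did not set it, as some genes with higher levels than UQCC2 and PSMB6 are not printed.
NDUFA13 (chr19:19516229-19516258, plus strand): tactgcgagtatGGCGGCGTCAAAGGTGAA
NDUFS6 (chr5:1801408-1801437, plus strand): gcggcgcaaaatgGCGGCGGCGATGACCTT
UQCC2 (chr6:33711667-33711696, minus strand): ggggcccaagatGGCGGCCAGCCGGTACCG
SLIRP (chr14:77708103-77708132, plus strand): agtctgaagatggcggccTCAGCAGCGAGA
PSMB6 (chr17:4796185-4796214, plus strand): gaggagaaagatggcggctACCTTACTAGC
COX5B (chr2:97646077-97646106, plus strand): cgcggacgcaatggcttcaaGGTTACTTCG
SDF2L1 (chr22:21642327-21642356, plus strand): ggccggggcgatgtggagcgcgggccgCGG
The NDUFA13 and UQCC2 models lacked the A and the T, and the NDUFS6 model began with the base after the start codon. The SDF2L1 model began furthest in of those shown.

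A second set shows a different case, in which the start codon was present. Here the capitals mark the start codon, and the main transcript of each of these genes has an intron inside it, so that the 2 blocks of coordinates are joined within the ATG.
GSTP1 (chr11:67583834-67583844 joined to chr11:67584134-67584152, plus strand): cttcgccaccATGccgccctacaccgtggt
PTGES3 (chr12:56687998-56688009 joined to chr12:56673048-56673065, minus strand): cccgttcacaATGcagcctgcttctgcaaa
UFM1 (chr13:38349910-38349921 joined to chr13:38349999-38350016, plus strand): cggcaccaccATGtcgaaggtttcctttaa
CHCHD5 (chr2:112584638-112584649 joined to chr2:112585974-112585991, plus strand): aggtctcgagATGcaggcggccctagaggt
In GSTP1, which encodes a glutathione transferase, the intron falls after the A, and in PTGES3, a co-chaperone of HSP90, UFM1, a ubiquitin-like modifier, and CHCHD5 it falls after the T. Models of these genes that contain all 3 bases of the ATG were in the class without a start codon.

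By number, isoforms without a start were 8.09% of the coding gene isoforms (95% exact Clopper-Pearson interval 7.53% to 8.68%), against 77.3% productive isoforms, 13.5% with a premature stop codon and 1.05% without a stop codon. The level of an isoform is the authors' mean normalized count over all 6 libraries, EV and WC together, since no value per library was used for isoforms. On this scale the isoforms without a start held 3.92% of the summed level of coding genes and the productive isoforms 89.8%. Their median level was 8.24, against 10.3 for productive isoforms, and their highest level was 763, in COX5B. The interval covers counting error only.

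The 714 models were compared with the annotated main transcript of their gene, and they fell into 7 groups by where the start codon lay. In 506 models of 423 genes, 70.9% of the number and 62.6% of the level, the 5′ end lay past the start codon. In 85 models, with 14.6% of the level, the start codon lay in an intron of the model. In 31 models, with 9.87% of the level, exons of the model held only part of the start codon. A further 30 models were listed on the strand opposite to the gene, and 21 ended before the start codon was reached. Another 15 contained the whole start codon of the main or of another annotated transcript of the gene. The remaining 26 models lay on alternate or patch sequences of the genome, for which no annotated start codon was used here.

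**Figure D1:**
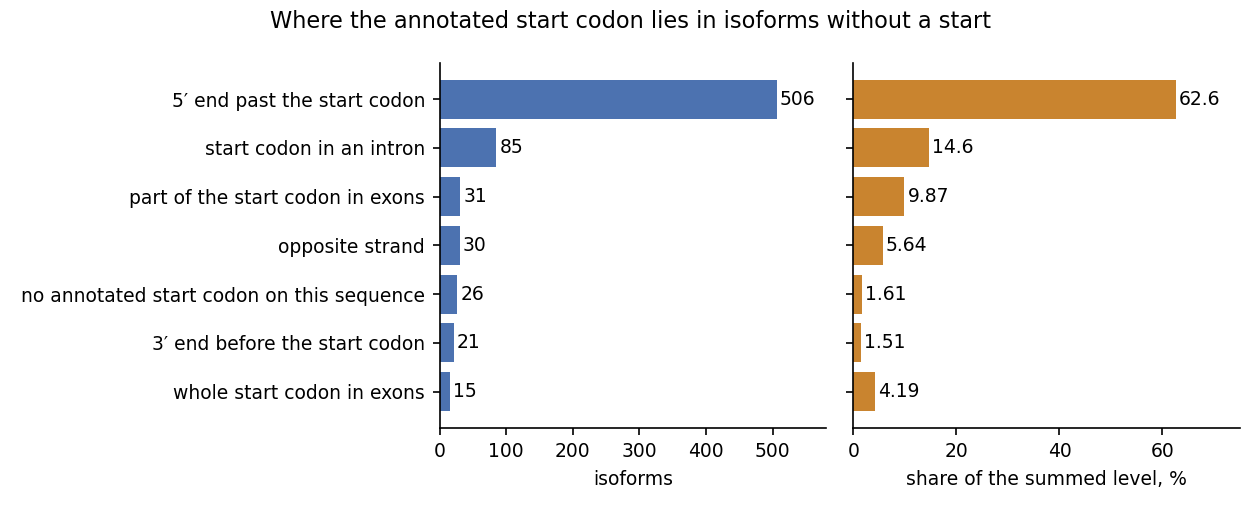
Number of isoforms without a start (left) and their share of the summed level in percent (right), by the position of the annotated start codon. The models whose 5′ end lies past the start codon make up 506 of 714 isoforms and 62.6% of the level.

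Coding bases before the 5′ end could be counted in 536 models, namely those of the first and the third group with at least 1 coding base of the main transcript upstream of them. Of these, 184 (34.3%) lacked 1 to 30 bases, 127 lacked 31 to 300 and 225 (42.0%) lacked more than 300. The first group held 64.5% of the level of the 536 models, against 19.7% in the last. In the first group the median number of coding bases lost was 6, the median length of a model was 1083 nt and the models kept a median of 98.4% of the coding sequence. In the last group a median of 1203 coding bases was lost, the models had a median length of 3624 nt and they kept a median of 33.9% of the coding sequence. In 46 models the loss was 1 to 3 bases.

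The groups also differed in where their 5′ ends lay relative to annotated transcripts. Of the 184 models that lacked 1 to 30 bases, 145 began exactly, to the base, at the 5′ end of an annotated transcript of the gene. In 143 of the 145, that transcript is one to which the annotation gives no start codon, either because it is listed as a retained intron, as having no defined coding sequence or as coding with the start not found. Of the 225 models that lacked more than 300 bases, 42 began at an annotated 5′ end, and 86 had their 5′ end in an exon of the main transcript. Over the 658 models on the strand of their gene with an annotated start codon, 333 (50.6%) began exactly at an annotated 5′ end, against 447 of 484 productive isoforms of the same genes (92.4%). For 65 of the 333, the annotated transcript has a start codon, against 337 of the 447. These counts are descriptions, as the class itself depends on the 5′ end. Whether the FLAIR run placed ends of models at annotated ends was not tested, so an exact match need not mark where reads began.

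**Figure D2:**
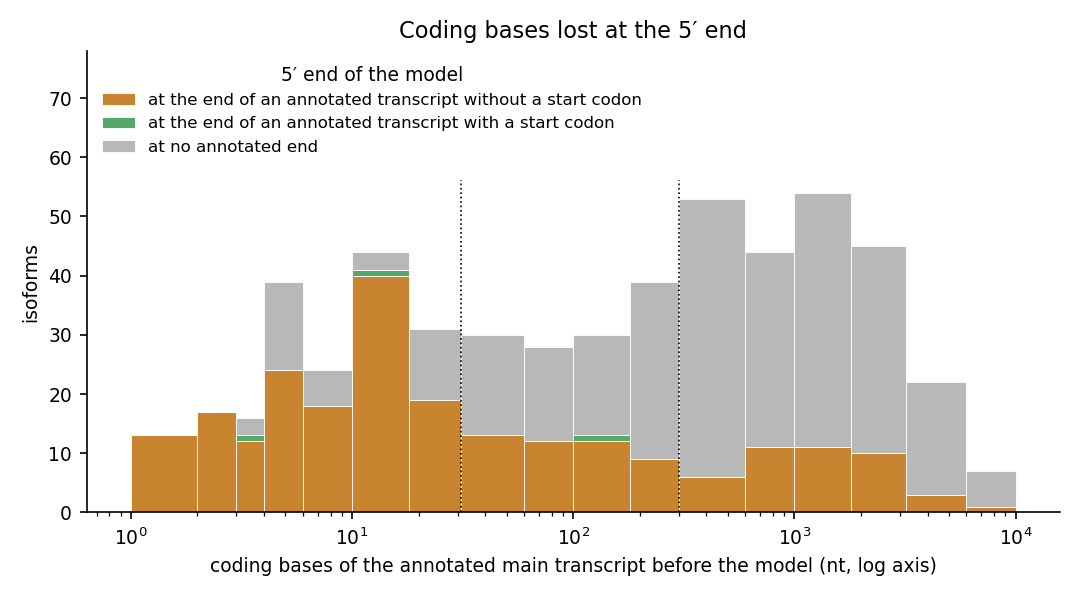
Number of isoforms by the coding bases of the annotated main transcript that lie before the model, on a log axis in nt, for the 536 models with at least 1 such base. Colors give what lies at the 5′ end of the model, and dotted lines separate losses of up to 30, of up to 300 and of more than 300 bases. Of the 184 models left of the first line, 143 begin at a transcript that is annotated without a start codon.

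Among the isoforms with small losses, COX5B stood highest. It encodes a nuclear subunit of cytochrome c oxidase, and its only listed isoform, at chr2:97646097-97648191 with 4 exons and 463 nt, had a level of 763 and began 10 coding bases after the annotated start. NDUFA13, a subunit of respiratory complex I, had 1 listed isoform with a level of 482 that lacked 2 bases. SLIRP, which binds mitochondrial mRNAs, had a pair of isoforms with a summed level of 430, and both began 9 coding bases inside. SDF2L1, a protein of the endoplasmic reticulum, had a level of 265 in its only isoform and lacked 17 bases. In none of these 4 genes was a productive isoform listed on the strand of the gene.

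The annotated 5′ UTR of the main transcript was short in these genes. Its median length was 25 nt in the 118 host genes with a model that lacked 1 to 30 coding bases, with quartiles of 16 and 47.3 nt. It was 90.5 nt in the 124 host genes of the middle group, 170 nt in the 207 host genes of the group with the largest losses, and 98 nt in the 4240 other coding genes with a listed isoform. A 5′ UTR under 50 nt was annotated for 90 of the 118 genes (76.3%), against 1000 of the 4240 (23.6%). A fixed number of missing bases at the 5′ end removes the start codon only where the 5′ UTR is shorter than that number, so the group and the length of the UTR are not independent.

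The letters at the start codon were then counted, after the windows above had been seen. The bases ATGGCGGC, read from the start codon along the transcript, are the core of an element known as TISU, a translation initiator of mRNAs with short 5′ UTRs, and the letters are also part of the recognition sequence of the transcription factor YY1. Only the position of the start codon on the strand of the transcript was searched. ATGGCGGC was found in 23 of the 118 host genes with models that lacked 1 to 30 bases (19.5%, exact interval 12.8% to 27.8%), against 237 of the 4240 other coding genes (5.59%, 4.92% to 6.32%) and 5.89% of all 4808 coding genes searched. Among genes with a 5′ UTR under 50 nt, the counts were 23 of 90 (25.6%, 16.9% to 35.8%) and 169 of 1000 (16.9%, 14.6% to 19.4%), and these intervals overlap. ATGGCGGC was present in 7 of 207 host genes with losses over 300 bases (3.38%). NDUFA13, NDUFS6, UQCC2, SLIRP and PSMB6, printed above, are among the 23 genes, as are EIF4B, EEF1G, MRPS35 and TIMM50. The printed windows thus hold these letters more often than the 118 genes do. A match is a description of letters and does not show that a factor acts there.

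Larger losses were seen in models with few of the exons of their gene. CIT encodes citron kinase, which acts in cell division, and its only listed isoform had 9 exons and 3513 nt at chr12:119685793-119708253 on the minus strand, a level of 149 and 5136 coding bases upstream of it, keeping 17.3% of the coding sequence. AMPD3, an AMP deaminase of red cells, had a level of 127 in a model of 2 exons and 7690 nt with 1842 coding bases upstream. MPP1, a membrane protein of red cells, had a model of 3 exons and 6437 nt with a level of 137 that lacked 480 coding bases, while its productive isoform with the highest level had 12 exons, 2006 nt and a level of 73.2. STAT3, a transcription factor activated by cytokines, held 6 isoforms without a start, with 1206 to 1601 nt and levels of 6.1 to 18.7, and each of them began after 2101 coding bases. These 6 isoforms held 91.6% of the level listed for STAT3.

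In the 85 models with the start codon in an intron, the 5′ end lay at an annotated 5′ end in 70, and for 42 of these the annotated transcript has a start codon. RPS27A, which encodes a fusion of ubiquitin and a ribosomal protein, had such a model with a level of 474. Its 5′ end lay 206 spliced nt upstream of that of the productive isoform, and its first junction went past the exon with the start codon. RPLP2, a protein of the ribosomal stalk, had a model with a level of 265 that shared both ends with the productive isoform (level 6357) and skipped the exon with the start codon, so that it was 321 nt long against 445 nt. CYSTM1, COX7C, HNRNPK, H2AZ1 and RPS12 had models of this kind with levels of 178, 170, 151, 106 and 103. HNRNPK encodes an RNA-binding protein, and in this gene the isoform without a start had a higher level than the productive isoform, 151 against 126. ELOVL5, a fatty acid elongase, had 1 such isoform with a level of 6.38, or 8.78% of the level of the gene. RPL10 and HSPA9, which the study shows as examples of isoform use together with ELOVL5, had no isoform without a start.

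**Figure D3:**
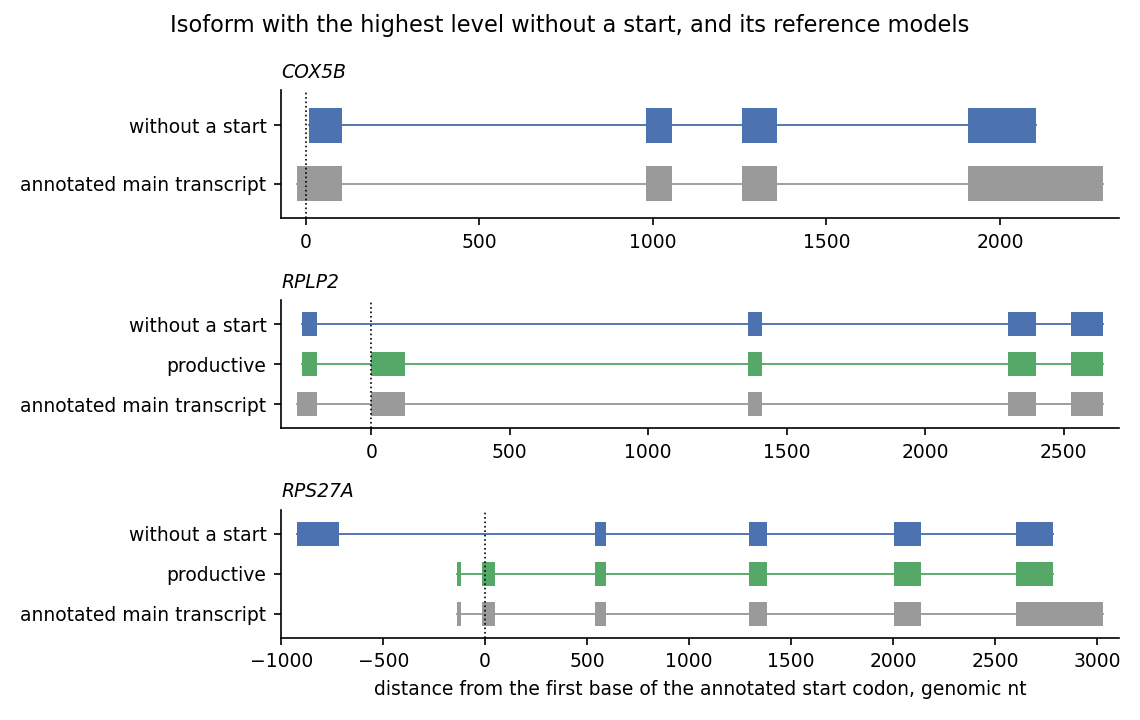
Exons (boxes) and introns (lines) of the isoform without a start with the highest level in COX5B, RPLP2 and RPS27A, above the productive isoform with the highest level and the annotated main transcript. The x axis gives the distance from the first base of the annotated start codon (dotted line) in genomic nt. COX5B has no productive isoform listed, and its model begins 10 bases after that base. The RPLP2 model has the ends of the productive isoform without the exon of the start codon.

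The 30 models on the opposite strand all had 1 exon. They have no junction, and their strand was taken as listed in the models and was not tested. In 26 of them the model covered the whole coding sequence of the gene. The 5′ end of the model lay within 50 nt of the annotated 3′ end of the gene in 27 of 30, and the median distance was 0 nt. PCBP1, an RNA-binding protein encoded in 1 exon, had the highest level, 349.7, in a model of 1727 nt. It was followed by the histone gene H2AW with 214 and by TAF7, a subunit of a general transcription factor, with 58.8. H2AC18, H2BC21, H4C3 and H2AC20, further histone genes with near-identical copies elsewhere, were also in this group, so that reads may be split between copies. The polyadenylation signal AATAAA, searched on the strand of the model in its last 50 nt, was found in 1 of the 30.

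The 15 models with a whole start codon came from 7 genes. In 14 of them, from 6 genes, that ATG is split by an intron, and these were GSTP1, PTGES3, UFM1 and CHCHD5 for the main transcript and RANBP1 and RSU1 for another annotated transcript. GSTP1 and PTGES3 had 6 isoforms without a start each and no other isoform in the table, with summed levels of 749 and 174. In GSTP1 the model with the highest level (478, 7 exons) covered the coding sequence completely. The other 5 models of GSTP1 had part of the start codon in exons, 4 of them beginning at the first base of the second exon. The remaining model of the 15 belonged to GNB1, with 2 exons, a level of 3.8, the start codon of another annotated transcript and 14.3% of the coding sequence.

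In the isoforms without a start, the 3′ ends lay at annotated ends more often than the 5′ ends, on which the class itself depends. Of the 658 models on the strand of the gene, 460 (69.9%) ended exactly at an annotated 3′ end, against 393 of 484 productive isoforms of the same genes (81.2%). Within 50 nt of such an end lay 461 and 394, and whether FLAIR placed these ends by the annotation was not tested. AATAAA was found in the last 50 nt of 55.9% and 70.2%. In 33 models (5.02%), against 3 productive isoforms (0.62%), at least 12 of the 20 genomic bases after the 3′ end were A. The share with AATAAA was 71.2% in the models that lacked 1 to 30 coding bases, 51.2% in those that lacked 31 to 300 and 40.0% in those that lacked more than 300. The models without a start had a median of 5 exons and 147.5 codons in their longest open reading frame from an ATG, against 7 exons and 235 codons. A later ATG in the annotated frame was present in 555 of 622 models where the frame could be followed (89.2%), at a median codon number of 137 counted from the annotated start, and in 122 of them within the first 50 codons.

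Productive isoforms were listed in the table for 252 of the 593 host genes, which allowed a comparison within the gene. For 309 models of 247 genes a productive isoform on the same strand could be used, and the one with the highest level was taken. The 5′ end of the isoform without a start lay downstream of that of the productive isoform in 222 of the 309 (71.8%, exact interval 66.5% to 76.8%), at the same base in 56 and upstream in 31. The median shift was 63 nt downstream along the productive isoform (order-statistic interval 49 to 99), with quartiles of 0 and 358 nt. In 195 of the 309 (63.1%) the 3′ ends were the same to the base. The isoforms without a start had a median of 1 exon fewer and were shorter by a median of 49 nt (interval 33 to 66), and 119 of them were longer than the productive isoform. The productive isoform had the higher level in 259 of the 309.

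The same values are given by position of the start codon, which itself sets the order of the 5′ shifts, so that these are a description. In the models that lacked 1 to 30 coding bases the median shift was 46 nt and the 3′ end was shared in 65 of 81. In those that lacked 31 to 300 it was 136.5 nt, and the 3′ end was shared in 42 of 68. In those that lacked more than 300 it was 1120 nt, the 3′ end was shared in 16 of 70, and the model had a median of 10 exons fewer. In the 75 models with the start codon in an intron, the 5′ end was the same in 48 and upstream in 26, and the 3′ end was shared in 67.

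**Figure D4:**
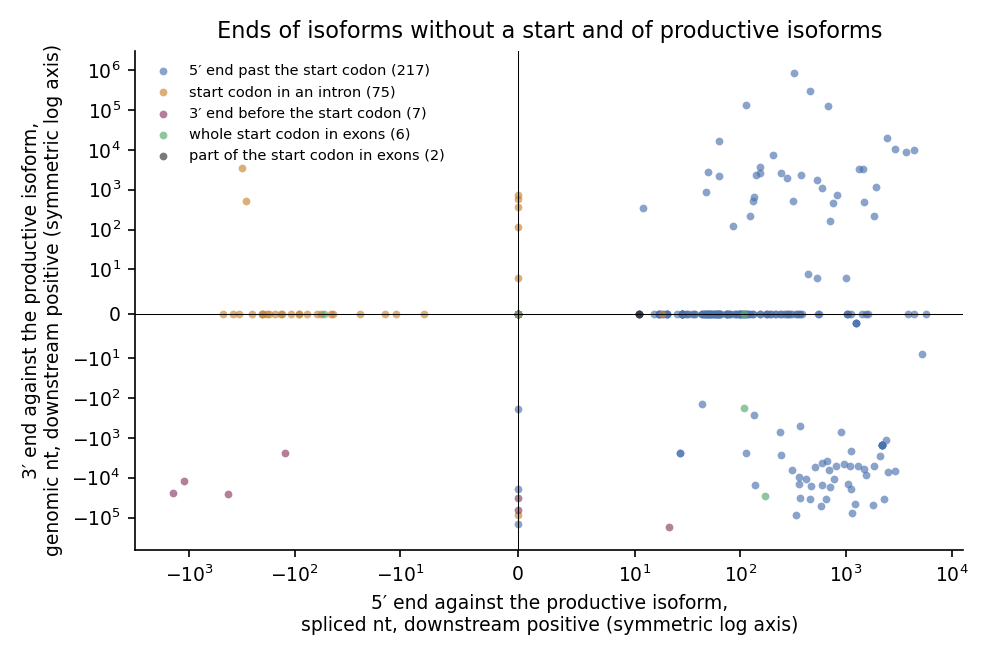
Position of the 5′ end (x axis, spliced nt) and of the 3′ end (y axis, genomic nt) of isoforms without a start relative to the productive isoform of the same gene with the highest level. Both axes are symmetric log axes, and positive values are downstream. Points are isoforms, colored by the position of the start codon, and 2 of the 309 isoforms are not drawn because they lie on a sequence with no annotated start codon used. Many points lie on the horizontal line, where the 3′ end is shared, as it is in 195 of 309.

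Intron chains, the ordered junctions of a model, could be compared for 440 isoforms with at least 1 junction, using all deposited productive models of the gene, also those outside the isoform table. In 284 (64.5%, exact interval 59.9% to 69.0%) at least 1 junction was in no productive model, and in 170 of these it was only the first one. In 58 (13.2%) the chain was the end part of a productive chain, as a model would have that begins later on the same transcript. In 97 the junctions were all known from productive models, but the chain was neither a whole productive chain nor its end part. This group was not split into other combinations and inner stretches of a productive chain, and AMPD3, with 1 junction, is in it. Of the 97, 67 lacked more than 300 coding bases. In 1 model the chain was the same. No productive model of the gene on that strand existed for 239 isoforms, and 35 had a single exon.

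An annotated transcript ID was carried by 238 of the 714 models, and 476 were named after reads. By the types of the authors' annotation release, 136 of the 238 IDs are coding transcripts, 69 processed transcripts, 25 retained introns and 8 subject to nonsense-mediated decay. For 224 of them the annotated transcript was found, and the 5′ end of the model lay inside the annotated end in 161, at it in 32 and outside it in 31. For 123 of these the annotated transcript has its own start codon, of which the model held 0 bases in 104, part in 16 and the whole in 3.

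Of the 593 host genes, 521 held 1 isoform without a start, 49 held 2 and 23 held 3 or more. In 284 (47.9%) no isoform of another class was listed, and in 38 the isoforms without a start held at least 50% of the level although a productive isoform was listed. The latter included HNRNPK, MPP1, MRPS18C of the mitochondrial ribosome (84.9%), NDUFB5 of respiratory complex I (86.1%) and SDHD of complex II (72%). Host genes were 12% of the coding genes with a listed isoform (exact interval 11.1% to 12.9%), with 9.71% of the 1236 genes with the lowest summed level and 15.6% of the 1236 genes with the highest.

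By gene list, isoforms without a start were found in 23 of 91 genes of ribosomal proteins (25.3%, exact interval 16.7% to 35.5%), with 49 isoforms and 23.0% of the summed level of all isoforms without a start. The list goes by symbol and includes RPS19BP1, RPL7L1, RPL22L1 and the read-through gene RPS10-NUDT3, which are not parts of the common ribosome. Of the 49 isoforms, 32 lacked 1 to 30 coding bases and 12 had the start codon in an intron. Nuclear genes of the respiratory chain were hosts in 12 of 77 (15.6%, 8.32% to 25.6%), with 9.97% of the level, and translation factors in 11 of 50 (22.0%, 11.5% to 36.0%). The shares were 11.8% of 76 mitochondrial ribosomal proteins, 11.6% of 43 proteasome genes, 26.3% of 19 genes chosen by symbols beginning with HSP (5 hosts, among them HSPG2, which encodes the proteoglycan perlecan and not a heat shock protein), 20% of 15 hnRNP genes, 13.3% of 15 genes of glycolysis, 14.5% of 55 solute carriers, 11.3% of 53 zinc finger genes, 10.3% of 29 aminoacyl-tRNA synthetases and 11.1% of 9 SR splicing factors. No host gene was among 8 genes of the cytosolic chaperonin and 12 of tubulin and actin, which allows shares of up to 36.9% and 26.5% by the exact interval. The intervals of the ribosomal proteins and of all coding genes do not overlap, while the ribosomal genes also lie among the highest levels.

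Whether the host genes differed between EVs and cells was asked at the level of the gene, because the gene counts exist per library. Such a count sums all isoforms of a gene, so it does not follow the isoform without a start itself, and in bulk RNA fewer vesicles or cells with an RNA and less of it in each cannot be told apart. All 593 host genes were in the count table, 488 passed the filter on low counts and 105 did not. Of the 488, 107 were higher in EV and 111 were lower in EV at an adjusted p under 0.05 (edgeR quasi-likelihood test with Benjamini-Hochberg adjustment over 8716 genes), or 21.9% and 22.7%. Over all genes tested, 22.8% were called higher and 21.4% lower, and among 3571 other coding genes with a listed isoform the shares were 18.2% and 19.8%, so that the host genes lay near the background. The median log2 fold change was -0.07 in host genes, -0.12 in the other coding genes and -0.13 over all genes. With total counts in place of TMM factors the split was 39 higher and 272 lower, since that scaling shifts the median of all genes by -0.65. The stricter threshold of the study was a log2 fold change of at least 2 or at most -2 and an adjusted p of at most 0.01. At it, 6 of the 488 host genes were higher and 20 lower. Over all 8716 genes tested, 395 and 517 were called (4.53% and 5.93%), and among the 3571 other coding genes 65 and 128. All directions given for genes are relative to the TMM scaling.

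The share of all gene counts in host genes was 8.72%, 9.17% and 9.13% in the EV libraries and 8.95%, 8.89% and 9.01% in the WC libraries. The groups overlapped, and their means were 9.01% ± 0.25 in EV and 8.95% ± 0.06 in WC (SD, n = 3 each, two-sided exact permutation test p = 0.8). Of the counts in coding genes only, host genes took 18%, 19.2% and 19.2% in EV libraries and 16.2%, 15.9% and 15.9% in WC libraries, with no overlap (exact permutation p = 0.1, the smallest p that 3 against 3 libraries allow).

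The calls were also counted by the isoform without a start that has the highest level in each host gene. Over all genes tested 22.8% were called higher in EV and 21.4% lower, and among the other coding genes 18.2% and 19.8%. Of 101 tested genes whose model lacked 1 to 30 coding bases, 34 were higher in EV (33.7%) and 8 lower (7.92%). Of 179 whose model lacked more than 300 bases, 19 were higher (10.6%) and 67 lower (37.4%). Of 68 with the start codon in an intron, 31 were higher (45.6%) and 8 lower (11.8%). Of 17 whose model ended before the start codon, 0 were higher and 7 lower (41.2%). Without EV replicate 1 the last group had 1 higher and 3 lower of 18. The 19 higher genes of the group with over 300 bases lost became 11 without EV replicate 3 or WC replicate 1. Without WC replicate 2 they became 10. The 8 lower genes of the intron group became 5 without EV replicate 3, 12 without EV replicate 1 and 10 without WC replicate 1. The median log2 fold changes of the groups with 1 to 30 and over 300 bases lost, the start codon in an intron and the end before the start codon were 0.13, -0.51, 0.32 and -0.11. With total counts the group with 1 to 30 bases lost and the intron group turned round, with 11 higher and 44 lower, and 18 higher and 28 lower. The groups also differ in what genes they hold, as ribosomal protein genes were hosts mostly in the first and in the intron group, and no test of the difference between groups was made.

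By list, 19 of 22 tested host genes of ribosomal proteins were higher in EV and 0 were lower, the median of their log2 fold changes being 1.06, and 14 were higher with total counts. Over all genes tested, 22.8% were called higher and 21.4% lower. List members without such an isoform were not compared, so these calls cannot be read as a trait of host genes. The study itself links its EV-enriched transcripts to structural constituents of the ribosome. Of 10 tested host genes of the respiratory chain, 8 were higher and 0 lower, which became 3 and 3 with total counts. The calls were 3 higher and 1 lower of 10 translation factors, 3 and 0 of 7 mitochondrial ribosomal proteins, 2 and 0 of 3 hnRNP genes, 1 and 2 of 3 genes of the HSP list, 2 and 1 of 7 solute carriers, 0 and 4 of 5 zinc finger genes, 1 and 0 of 1 SR factor, 1 and 0 of 1 gene of glycolysis, 0 and 0 of 1 aminoacyl-tRNA synthetase and 0 and 0 of 4 proteasome genes. With total counts the mitochondrial ribosomal proteins turned to 0 higher and 3 lower, and the hnRNP genes and the SR factor lost their calls. Translation factors then had 1 higher and 4 lower, and solute carriers also 1 and 4. Proteasome genes had 0 and 3, zinc finger genes 0 and 5, and the aminoacyl-tRNA synthetase 0 and 1. Without 1 library the higher hnRNP genes were 0 without WC replicate 2, 1 without EV replicate 1 or 3 or WC replicate 1 or 3 and 2 otherwise, and the SR factor was called only without EV replicate 3. The lower zinc finger genes were 2 without EV replicate 1 or 2 or WC replicate 2 or 3, the lower solute carriers 2 without EV replicate 3 or WC replicate 1 or 3, and the lower genes of the HSP list 1 without WC replicate 1 or 3.

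Among the genes with the highest levels of isoforms without a start, GSTP1 had 1095, 953 and 904 CPM, counts scaled to library size with the TMM factors, in EV libraries and 466, 422 and 399 CPM in WC libraries. The groups did not overlap, and the log2 fold change was 1.20 ± 0.14 (SE, edgeR adjusted p = 1.5e-07). SLIRP had 409, 525 and 555 CPM in EV and 233, 209 and 202 CPM in WC, with a log2 fold change of 1.20 ± 0.16 (edgeR adjusted p = 9.8e-07). Both genes were higher in each EV library than in any WC library.

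COX5B stood near the threshold. It had 586, 747 and 778 CPM in EV libraries and 597, 548 and 483 CPM in WC libraries, so that the groups overlapped, and its log2 fold change was 0.37 ± 0.15 (edgeR adjusted p = 0.045). With the replicate number as a block the adjusted p was 0.082, with DESeq2 0.25, with RLE factors 0.053 and with the other count filters 0.064 and 0.67. With total counts it was called lower in EV, with a log2 fold change of -0.29 (edgeR adjusted p = 0.046). Without EV replicate 2 or 3 or WC replicate 2 or 3, the edgeR adjusted p of COX5B was 0.18, 0.23, 0.19 and 0.27. SDF2L1 had 281, 169 and 167 CPM in EV and 271, 234 and 250 CPM in WC, and its log2 fold change of -0.27 ± 0.19 did not pass the test (edgeR adjusted p = 0.26), while it was called lower with total counts (-0.91, adjusted p = 0.00048) and without EV replicate 1 (-0.62, adjusted p = 0.0031). Its EV values spanned those of WC. HNRNPK also overlapped, with 336, 442 and 495 CPM in EV, 228, 392 and 455 CPM in WC and an edgeR adjusted p of 0.40.

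RPL10A, RPLP2, RPS27A and RPS4X, all of the ribosome, were higher in EV, with log2 fold changes of 0.70, 1.08, 1.06 and 0.88, of which RPL10A and RPS4X lost their calls with total counts. RPLP2 averaged 7748 ± 1208 CPM in EV and 3659 ± 437 CPM in WC (SD, n = 3 each), and RPS27A 4372 ± 1080 CPM and 2098 ± 164 CPM. STAT3 had 132, 132 and 89.0 CPM in EV and 206, 184 and 175 CPM in WC, with a log2 fold change of -0.67 ± 0.18 (edgeR adjusted p = 0.0047). PTGES3, MPP1 and ELOVL5 had log2 fold changes of -0.24, -0.21 and -0.35 that did not pass the test (edgeR adjusted p = 0.27, 0.30 and 0.13). With total counts all 3 were called lower in EV (edgeR adjusted p = 0.00019, 4.3e-05 and 0.00011), as was ELOVL5 with no filter on low counts (adjusted p = 0.044) and PTGES3 without EV replicate 1 (adjusted p = 0.014). SDHD averaged 47.9 ± 4.0 CPM in EV and 14.2 ± 0.54 CPM in WC, a log2 fold change of 1.75 (edgeR adjusted p = 1.6e-06).

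The host genes with the largest fold changes at a mean of at least 20 CPM were CIT, SNRNP27, NDUFB5 and ANP32B on the side of EV. CIT had 222, 201 and 173 CPM in EV libraries and 24.7, 36.0 and 30.2 CPM in WC libraries, a log2 fold change of 2.71 ± 0.19 (edgeR adjusted p = 2.9e-11). SNRNP27, of the splicing machinery, had 49.4, 102 and 126 CPM in EV and 13.7, 19.1 and 14.3 CPM in WC, with a log2 fold change of 2.47. NDUFB5 had 38.4, 60.1 and 61.6 CPM in EV and 8.24, 12.5 and 10.5 CPM in WC, with a log2 fold change of 2.28. In ANP32B, a histone chaperone, the log2 fold change was 1.94, while its isoform without a start held 5.62% of the level of the gene. In CIT the isoform without a start was the only one listed.

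On the side of WC were NPIPB12, ZBED9, ATP6AP1 and NPIPB3. ATP6AP1, an accessory subunit of the vacuolar proton pump, had 12.3, 2.31 and 2.28 CPM in EV libraries, which are 9, 1 and 1 counts, and 50.5, 43.1 and 50.6 CPM in WC libraries. Its log2 fold change was -2.81 ± 0.38 (edgeR adjusted p = 1.3e-06), and both of its isoforms lacked 5 coding bases. Without EV replicate 1, which holds 9 of its 11 EV counts, the log2 fold change of ATP6AP1 was -4.38. ZBED9 had 1, 4 and 2 counts in EV and 91, 220 and 196 counts in WC, with a log2 fold change of -3.44, which was -2.84 without EV replicate 1 and -4.21 without EV replicate 2. NPIPB12 and NPIPB3 had log2 fold changes of -3.86 and -2.69, and they belong to a family of near-identical copies on chromosome 16, so that their reads cannot be assigned with certainty. The EV values of these 4 genes rest on few counts.

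**Figure D5:**
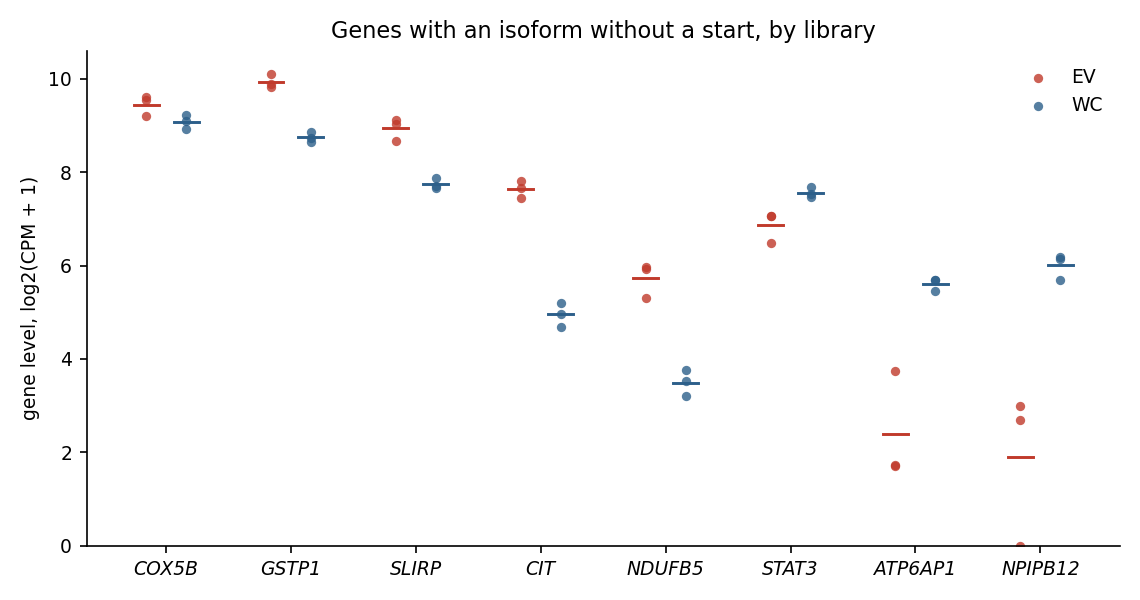
Gene level in log2(CPM + 1) of 8 host genes in the EV libraries (red, left of each pair) and the WC libraries (blue, right). Points are libraries and bars are means of 3. GSTP1, SLIRP, CIT and NDUFB5 lie higher in every EV library, COX5B overlaps, and STAT3, ATP6AP1 and NPIPB12 lie lower in every EV library.

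Some host genes could not be followed by gene counts at all. NDUFA13 had 0 counts in the 3 EV libraries and 0, 0 and 1 in the WC libraries, although its isoform had a level of 482. PCBP1 had 1, 0 and 0 counts in EV and 0, 1 and 0 in WC at an isoform level of 349.7, and MRPS18C had 1, 0 and 1 counts in EV and 7, 10 and 5 in WC at a summed level of 151. Of the 105 host genes that did not pass the filter, 31 had no count in any library and 4 had a summed level of at least 100 in isoforms without a start. The isoform levels and the gene counts of the authors thus differ for these genes. The strand setting of the gene counts is not given in the sources used here, and the study counted a part of its reads as ambiguous because they overlap several genes.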

How the data were processed

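RNA of EVs and of whole K562 cells was sequenced as barcoded PCR-cDNA on nanopore flow cells, with 3 libraries of each. The authors called bases with Guppy at a minimum quality of 7, removed reads under 20 nt, mapped with minimap2 and counted reads per gene with featureCounts in long-read mode on GENCODE version 41. The deposited gene counts are whole numbers of reads, not normalized. The deposited isoform signal is the authors' mean of FLAIR isoform counts over all 6 libraries after division by DESeq2 size factors, and no isoform value per library was used. The deposited isoform models hold exon coordinates on GRCh38 (hg38) and a score that the authors' FLAIR run wrote, which was read only to check the file. The same isoform table and a gene table hold fold changes and p-values of the authors' own EV against WC comparison, which were not used. The filter that kept isoforms in the table is not given in the sources used here.

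Isoforms were taken where the gene ID began with ENSG, the biotype was protein coding and the productivity was that without a start codon. Models were compared, in Python 3.11.15 with pandas 2.3.3, with the Ensembl canonical transcript and all other transcripts of GENCODE version 44, a later release than that of the authors, so an end can match in one and not in the other. Shares carry exact Clopper-Pearson intervals at 95% and medians order-statistic intervals. All of these cover counting error only, and isoforms of a gene are not independent. Amplified reads without molecular identifiers are not independent molecules.

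EV was compared with WC gene by gene, without a block, by the robust quasi-likelihood fit of edgeR (version 4.0.16, R version 4.3.3) after filterByExpr and TMM scaling, with Benjamini-Hochberg adjustment over all genes, and the script was tested on simulated data. The EV and WC library of a replicate number come from the same culture, so the numbers pair the samples. After removal of group means, same-numbered libraries correlated at 0.062, 0.024 and 0.0044 across genes. Differently numbered libraries correlated at -0.049 to 0.034, so that the ranges overlap. DESeq2 1.42.0, RLE and total-count scaling, other count filters, a replicate block, each library left out and the threshold of the study were alternatives, as were other productive isoforms, isoforms with a level of at least 10, 1 isoform a gene and models from reads only. P-values measure the spread between cultures of 1 line. Single values per library were compared by an exact permutation test.

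Genes named with gene values were the 10 with the highest level in 1 isoform without a start, the 5 with the most such isoforms, the 5 with the highest level among genes where such isoforms take at least 50% beside a productive isoform, RPL10, ELOVL5 and HSPA9, and the 4 called host genes at each end of the fold changes with a mean of at least 20 CPM. Other genes were named after their values were seen. The members, gene lists and named-gene rule were chosen with earlier results of these data known. Genes on chromosome 8 are shown without sequence, and some genes and sequences that the rule covers are not reported here.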

Additional observations from a re-analysis of the deposited data

How the results depend on the processing

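With total counts, 39 host genes were higher and 272 lower in EV, against 107 and 111 with TMM factors. The log2 fold changes of COX5B and HNRNPK turned to -0.29 and -0.45, and RPL10A and RPS4X, at 0.04 and 0.23, lost their calls, while ELOVL5, MPP1, PTGES3 and SDF2L1 gained one as lower in EV and COX5B was called lower. With no filter on low counts the calls were 72 and 141, with DESeq2 83 and 92, and at the threshold of the study 6 and 20. The replicate block gave 103 and 107 calls and changed the call of no named gene other than COX5B (adjusted p = 0.082 in edgeR). Leaving out 1 library gave 78 to 107 higher and 89 to 109 lower genes. HNRNPK then ranged between -0.068 and 0.36, being below 0 without WC replicate 1, and PTGES3 and SDF2L1 gained a call without EV replicate 1. The difference in the share of counts in host genes was 0.057 percentage points, -0.024 to 0.20 without 1 library, and 2.79 over coding genes only. The causes were not tested.

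Over isoforms with a level of at least 10, the median shift of the 5′ end was 45 nt, the share with a junction of no productive model 76.6% and the share of all coding isoforms 6.97%. Among models from reads only, the share with such a junction was 58.9%. Isoforms without a start were 12.9% of all deposited models of these coding genes. Of 276 alternative values for named genes, 254 kept their direction and their side of the threshold. No paired analysis was possible for isoforms because their table is pooled over libraries. EV depth limits genes with few counts.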
